A study of Homo sapiens with 12 samples.

Results

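DPYSL3, AFAP1L2 and LCP1 are 3 genes of cytoskeletal proteins that were chosen on a measured value, a positive interaction between ACSL5 knockdown and palmitic acid, out of 57730 genes in the count table. The interaction is the log2 palmitate response of knockdown cells less that of control cells. It is built from all 4 group means, so every value of the 3 genes below is a description and carries no test. All 3 were among the 14706 genes with enough counts to be analysed. The working description of the set was that palmitate partly restores genes lost with the knockdown, and the data met that description for DPYSL3 alone. AFAP1L2 was lower still with palmitate in the knockdown cells, and LCP1 ended above its level in untreated control cells.

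The study used LM3 cells, which come from lung metastases of the human breast cancer line MDA-MB-231, grown in DMEM with 10% serum. The shControl group carried a control hairpin, and the shACSL5 group a hairpin against ACSL5, a long-chain acyl-CoA synthetase that activates fatty acids. The shControl_PA and shACSL5_PA groups were the same cells given palmitic acid, a saturated fatty acid. Each group had 3 libraries of polyA RNA with 16788694 to 21814751 counts. The labels name no dose, time or vehicle for palmitic acid and no hairpin sequence, pool or clone. Palmitate and a vehicle, or ACSL5 loss and another action of the hairpin, therefore cannot be told apart. Nothing says that the replicates were separate cultures, so errors measure only the spread between these libraries, which may be technical.

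ACSL5 stood at 7.82% of the shControl mean in shACSL5 and at 10.7% in shACSL5_PA, against 133% in shControl_PA. The 8 mesenchymal markers of the line were all present, with a summed level of 7380 to 7620 CPM (counts scaled to library size with TMM factors) in shControl and 6750 to 6980 in shControl_PA, against 5610 to 5780 in shACSL5 and 5500 to 5750 in shACSL5_PA. The 9 luminal breast markers, of which 6 passed the filter on low counts, summed to 579 to 609, 492 to 515, 402 to 436 and 400 to 438 CPM in the same order. Both sums were thus lower in the knockdown groups, as DPYSL3 and AFAP1L2 were. The mesenchymal sum was mostly VIM, at 2550 to 4030 CPM over all libraries, and MSN, at 1290 to 1770 CPM. The luminal sum was mostly KRT8, at 187 to 309 CPM, and KRT18, at 165 to 224 CPM. The sums therefore do not give the direction of each marker, and their part in the results was not tested. Because LCP1 is a leukocyte gene and DPYSL3 a neuronal one in normal tissue, markers of both cell types were read as well. Of 13 leukocyte markers 4 had no count in any library and 1, CORO1A, passed the filter on low counts. PTPRC, the pan-leukocyte marker, reached at most 0.369 CPM. The leukocyte sum was 2.40 to 3.04 CPM in shControl_PA, 2.85 to 3.44 CPM in shACSL5_PA, 3.53 to 4.03 CPM in shACSL5 and 3.79 to 4.12 CPM in shControl. Of 9 neuronal markers 5 had no count in any library, and the sum was 9.97 to 10.5 CPM in shControl and 8.20 to 8.99 in shControl_PA, against 10.7 to 13.4 in shACSL5 and 7.59 to 10.5 in shACSL5_PA. The leukocyte and neuronal sums were each mostly 1 gene, CORO1A at 2.23 to 3.57 CPM and SYT1 at 7.50 to 13.1 CPM. The part of these markers in the results was not tested.

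DPYSL3, also called CRMP4, belongs to the collapsin response mediator proteins, cytosolic phosphoproteins that bind tubulin and act in semaphorin signalling during axon growth, and it can also bundle actin. AFAP1L2, also called XB130, is an adaptor of the actin filament-associated protein family that is phosphorylated by Src-type tyrosine kinases and binds the regulatory subunit of phosphoinositide 3-kinase. LCP1, L-plastin, crosslinks actin filaments into bundles under the control of calcium, and is made by blood cells and by many tumour cells. The set therefore holds a microtubule and actin regulator, a signalling adaptor and an actin bundler.

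The 3 genes lie on different chromosomes of GRCh38 in GENCODE release 29, all on the minus strand. DPYSL3 (ENSG00000113657) spans chromosome 5 from 147390811 to 147510056, AFAP1L2 (ENSG00000169129) chromosome 10 from 114294824 to 114404756, and LCP1 (ENSG00000136167) chromosome 13 from 46125920 to 46211871. AFAP1L2 lies 1.87 megabases from ACSL5 on the same chromosome. Exons of the 3 genes overlap 0% with exons of any other gene on either strand, and 0% of their 50-base transcript stretches occur in transcripts of another gene, so their reads are not shared by annotation.

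The promoter windows below are shown because the 3 genes were grouped for a positive interaction, and the windows let their starts be compared. Each runs from 250 bases before to 50 bases after a RefSeq start (GRCh38.p14), 5′ to 3′ on the minus strand. DPYSL3 has 2 windows. The AFAP1L2 and LCP1 windows lie inside the GENCODE spans of their genes, which run upstream to 114404756 and 46211871. For both genes a start further upstream is therefore not shown. The counts do not tell which start is used for any of the 3 genes. Capitals mark every match, on either strand and with overlaps allowed, to 7 motifs: the GC box GGGCGG, the TATA box TATAAA, the CCAAT box CCAAT, the AP-1 site TGANTCA, the TEAD site GGAATG, the nuclear receptor element AGGTCA and the E-box CACGTG. The windows are chr5:147510019-147510318 and chr5:147453643-147453942 for DPYSL3, chr10:114404453-114404752 for AFAP1L2 and chr13:46182128-46182427 for LCP1.
DPYSL3 start 1: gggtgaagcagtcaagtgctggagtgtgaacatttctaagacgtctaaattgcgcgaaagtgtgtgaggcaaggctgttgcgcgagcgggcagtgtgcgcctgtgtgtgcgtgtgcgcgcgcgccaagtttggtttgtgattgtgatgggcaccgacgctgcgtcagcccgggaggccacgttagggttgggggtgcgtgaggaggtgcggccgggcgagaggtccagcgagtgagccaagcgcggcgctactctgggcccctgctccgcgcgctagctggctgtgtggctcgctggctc
DPYSL3 start 2: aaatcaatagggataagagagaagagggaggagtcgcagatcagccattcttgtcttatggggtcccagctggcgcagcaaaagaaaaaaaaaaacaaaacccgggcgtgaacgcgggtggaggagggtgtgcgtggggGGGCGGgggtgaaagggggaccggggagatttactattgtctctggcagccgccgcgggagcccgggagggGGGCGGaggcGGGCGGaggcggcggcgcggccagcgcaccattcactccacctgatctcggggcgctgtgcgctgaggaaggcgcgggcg
AFAP1L2: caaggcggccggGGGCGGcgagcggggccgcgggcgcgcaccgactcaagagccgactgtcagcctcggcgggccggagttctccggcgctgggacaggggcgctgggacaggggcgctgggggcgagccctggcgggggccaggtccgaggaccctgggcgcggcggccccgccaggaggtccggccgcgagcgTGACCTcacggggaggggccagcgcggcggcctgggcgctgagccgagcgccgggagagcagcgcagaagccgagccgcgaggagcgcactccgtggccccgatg
LCP1: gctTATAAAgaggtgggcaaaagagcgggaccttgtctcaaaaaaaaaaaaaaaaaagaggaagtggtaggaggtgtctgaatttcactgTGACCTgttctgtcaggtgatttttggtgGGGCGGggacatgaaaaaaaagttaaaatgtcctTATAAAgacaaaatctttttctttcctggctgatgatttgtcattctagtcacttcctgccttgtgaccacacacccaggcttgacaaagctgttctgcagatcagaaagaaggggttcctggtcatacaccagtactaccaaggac

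The windows shown for the 3 genes were unlike each other in base composition. The DPYSL3 windows had 64.3% GC with 29 and 27 CpG dinucleotides, the AFAP1L2 window had 80.0% GC with 44, and the LCP1 window had 42.7% GC with 2, against medians of 58.7% and 14 over 35114 windows of the same length. The GC box was found 3 times at the second DPYSL3 start, 1 time at AFAP1L2 and 1 time at LCP1, and is in 45.0% of all windows. The TATA box was found 2 times in the LCP1 window, 247 and 97 bases before the start, and is in 11.5% of windows. The nuclear receptor element was found 1 time at AFAP1L2, 55 bases before the start, and 1 time at LCP1, 160 bases before it, and is in 13.8% of windows. None of the 7 motifs occurs at the first DPYSL3 start. The CCAAT box (34.6% of windows), AP-1 site (7.71%), TEAD site (14.0%) and E-box (7.26%) were found in none of the 4 windows. No motif was common to all 4 windows.

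DPYSL3 was the gene of the set with the deepest loss in the knockdown and a partial return under palmitate. The shControl libraries held 28.7, 31.7 and 31.5 CPM, and the shACSL5 libraries 2.75, 2.31 and 2.64 CPM. With palmitate the shControl_PA libraries held 21.2, 20.0 and 16.1 CPM, and the shACSL5_PA libraries 4.90, 5.81 and 5.00 CPM. The 4 groups did not overlap anywhere, in the order shControl, shControl_PA, shACSL5_PA and shACSL5. With palmitate DPYSL3 was thus lower in control cells and higher in knockdown cells.

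Relative to untreated control cells, DPYSL3 stood at 8.37% ± 0.744 in shACSL5, 62.3% ± 8.62 in shControl_PA and 17.1% ± 1.64 in shACSL5_PA (SD, n = 3). The return with palmitate was 2.67 CPM of a knockdown gap of 28.1 CPM, or 9.52% ± 1.16 (SE). Most of the narrowing of the gap lay on the control side, where DPYSL3 stood 11.5 CPM lower with palmitate, and the gap was then 13.9 CPM. On the log2 scale the knockdown changed DPYSL3 by -3.57 (SE 0.13) without and -1.86 (SE 0.12) with palmitate. The palmitate response was -0.68 (SE 0.10) in control cells, and 1.02 (SE 0.15) in those with the knockdown, 2.03-fold from a low level.

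AFAP1L2 was low in every group that had the knockdown, palmitate or both. The shControl libraries held 18.9, 21.4 and 22.0 CPM, and the shACSL5 libraries 2.15, 1.72 and 3.80 CPM. With palmitate the shControl_PA libraries held 4.32, 3.43 and 2.83 CPM, and the shACSL5_PA libraries 1.13, 1.42 and 1.67 CPM. The shACSL5 and shControl_PA libraries overlapped each other, and both groups lay below shControl and above shACSL5_PA. The adaptor's transcript was low with either treatment alone and lowest with both.

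As a share of the shControl mean, AFAP1L2 stood at 12.3% ± 5.28 in shACSL5, 17.0% ± 3.60 in shControl_PA and 6.76% ± 1.30 in shACSL5_PA (SD, n = 3). No return was seen: the knockdown cells stood at -1.15 CPM with palmitate relative to without, -6.34% ± 3.81 (SE) of the knockdown gap of 18.2 CPM (-8.83% to -2.82% with 1 library left out, the last without shACSL5 replicate 3). The interaction of AFAP1L2 was positive because the control cells stood 17.2 CPM lower with palmitate, a log2 change of -2.56 (SE 0.19), against -0.87 (SE 0.26) in the knockdown cells. The knockdown changed AFAP1L2 by -3.01 (SE 0.19) without and -1.33 (SE 0.25) with palmitate, and the gap under palmitate was 2.12 CPM. The low groups rested on few reads, with 29 to 72 counts a library in shACSL5 and 23 to 31 in shACSL5_PA, so that the closest libraries of the pair were 31 and 29 counts. Without shACSL5 replicate 3, the highest of its group, the palmitate change in knockdown cells was -0.48 instead of -0.87 and the interaction was 2.07.

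LCP1 was the mildest of the 3 in the knockdown and the one that overshot. The shControl libraries held 16.1, 14.9 and 14.1 CPM, and the shACSL5 libraries 9.39, 11.4 and 7.96 CPM. With palmitate the shControl_PA libraries held 13.1, 12.5 and 12.2 CPM, and the shACSL5_PA libraries 20.5, 21.1 and 19.4 CPM. The 4 groups did not overlap, and the order was shACSL5_PA, shControl, shControl_PA and shACSL5. The cells with both the knockdown and palmitate were thus the highest of all for this actin bundler, where for AFAP1L2 they were the lowest.

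LCP1 stood at 63.8% ± 11.4 of the shControl mean in shACSL5, 83.7% ± 3.06 in shControl_PA and 136% ± 5.83 in shACSL5_PA (SD, n = 3). Palmitate added 10.8 CPM in knockdown cells, 198% ± 28.9 (SE) of a knockdown gap of 5.44 CPM. On the log2 scale the knockdown changed LCP1 by -0.65 (SE 0.11) without palmitate and by 0.70 (SE 0.10) with it, a turn of direction that neither DPYSL3 nor AFAP1L2 showed. Its palmitate response was -0.26 (SE 0.11) without the knockdown and 1.09 (SE 0.11) with it. LCP1 was the only gene of the 3 whose gap under palmitate had the opposite sign, at -7.79 CPM for control minus knockdown cells.

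**Figure D1:**
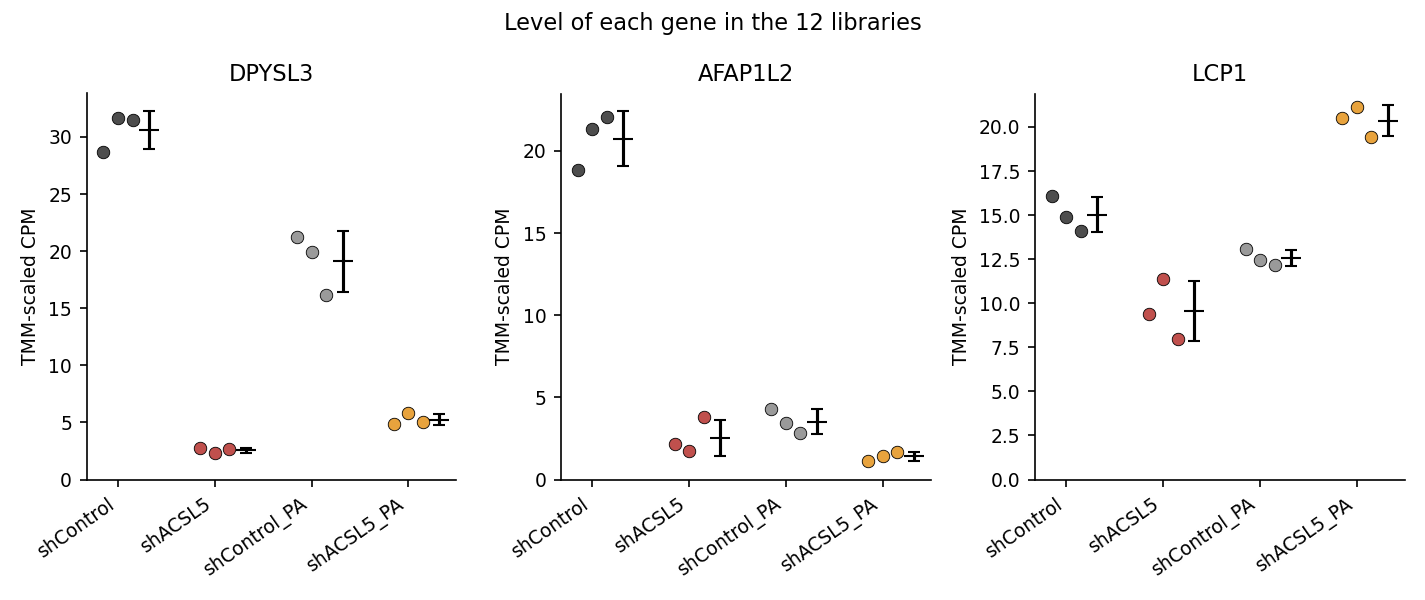
TMM-scaled CPM (y axis, from 0) of DPYSL3, AFAP1L2 and LCP1 in each of the 12 libraries (points), by group (x axis), with the group mean and SD as a bar beside them. In knockdown cells the means without and with palmitate are 2.57 and 5.24 CPM for DPYSL3, 2.56 and 1.40 CPM for AFAP1L2 and 9.57 and 20.4 CPM for LCP1.

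The spread between replicates was compared with what read counting alone gives at the mean count. For DPYSL3 in shACSL5 the coefficient of variation was 8.88% against 14.2% from counting, and for LCP1 in shACSL5_PA it was 4.30% against 5.00%. AFAP1L2 was above counting in shACSL5, at 42.9% against 14.2%, in shControl_PA, at 21.2% against 12.5%, and in shControl, at 8.09% against 5.13%. LCP1 in shACSL5, at 17.9% against 7.40%, and DPYSL3 in shControl_PA, at 13.8% against 5.37%, were above it too. The observed spread was thus above the counting value for each of the 3 genes in at least 1 group. With 3 libraries a group such a spread is imprecise, and the excess was not tested.

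Similar interactions were made up differently. The interaction was 1.70 (SE 0.18) for DPYSL3, 1.68 (SE 0.33) for AFAP1L2 and 1.35 (SE 0.15) for LCP1, values that chose the genes. In CPM the palmitate change in knockdown cells exceeded that in control cells by 14.2 for DPYSL3, 16.1 for AFAP1L2 and 13.2 for LCP1. By fitted interaction DPYSL3 ranked 106th, AFAP1L2 112th and LCP1 182nd from the top of the 14706 genes, so the set does not hold the strongest positive interactions. No threshold is given with the rule that picked them. With palmitate DPYSL3 was lower in control and higher in knockdown cells, AFAP1L2 was lower in both, and LCP1 was higher in knockdown cells by more than it was lower in control cells.

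**Figure D2:**
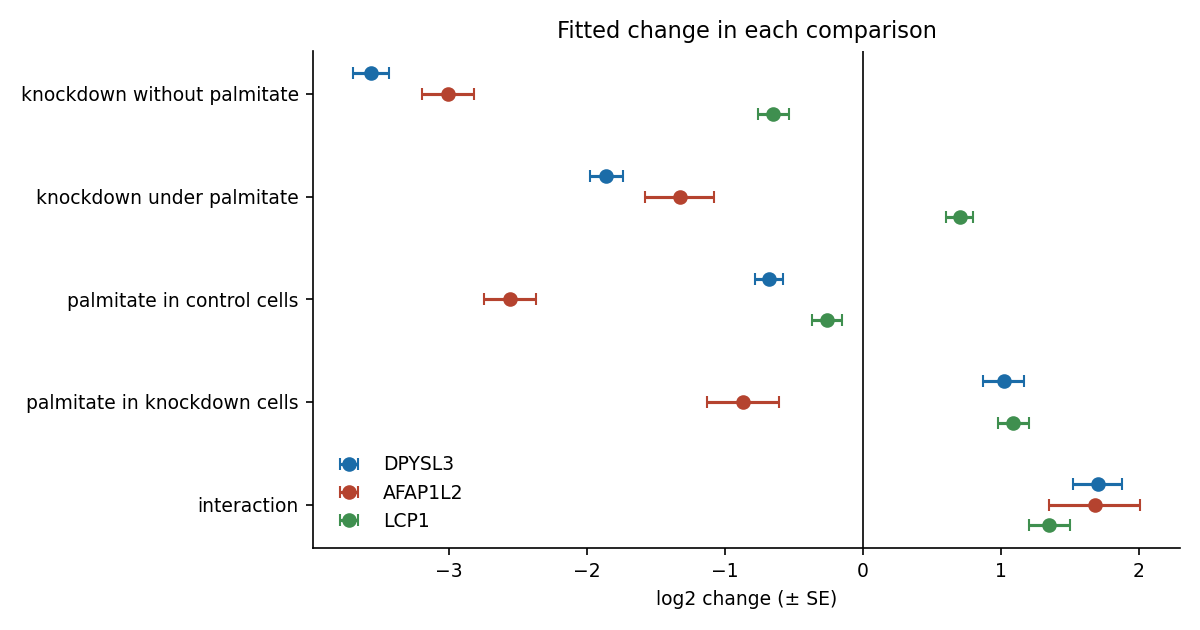
Fitted log2 change (x axis, with SE as bars) of the 3 genes in each comparison (y axis); the line marks no change. The interactions lie between 1.35 and 1.70, while palmitate in knockdown cells gives 1.02 for DPYSL3, -0.87 for AFAP1L2 and 1.09 for LCP1.

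**Figure D3:**
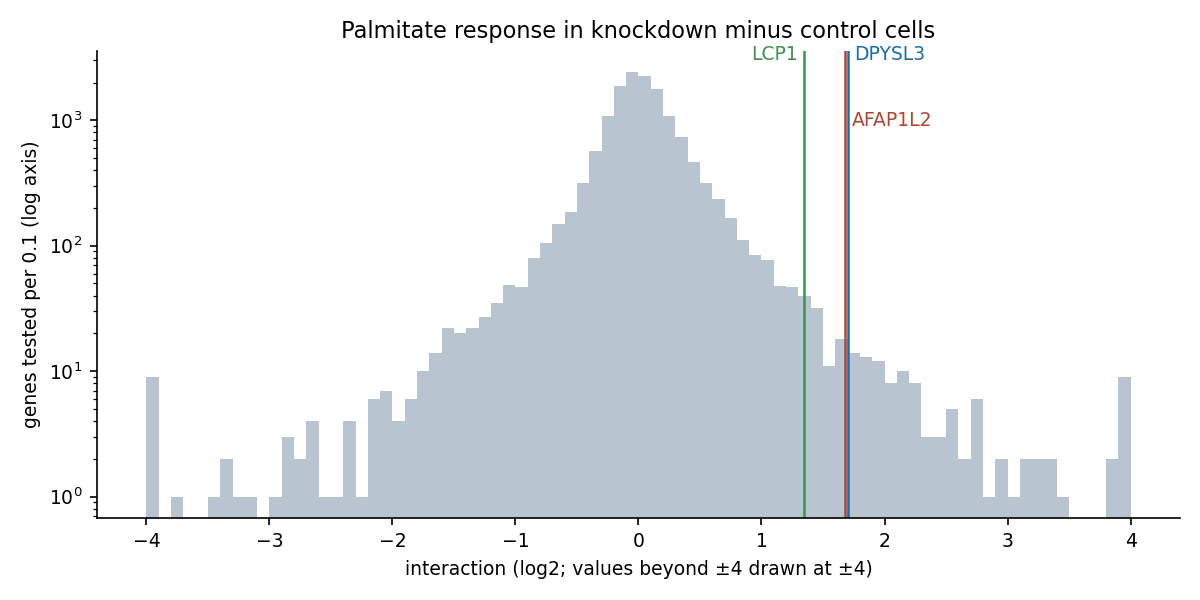
Number of the 14706 genes (y axis, log scale) by fitted interaction in log2 (x axis), with the 3 genes as vertical lines. All 3 lines lie in the right tail, at 1.70 for DPYSL3, 1.68 for AFAP1L2 and 1.35 for LCP1, and genes with larger values lie beyond them; values beyond 4 in either direction are drawn at the ends.

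Per kilobase of exon, the order of the 3 genes changed between groups. In shControl the levels were 4.28 ± 0.233 CPM per kilobase for DPYSL3, 3.59 ± 0.290 for AFAP1L2 and 2.97 ± 0.195 for LCP1 (SD, n = 3). In shACSL5 the highest was LCP1 at 1.89 ± 0.338 CPM per kilobase, over AFAP1L2 at 0.442 ± 0.189 and DPYSL3 at 0.358 ± 0.0318. The last pair differed by less than the SD of AFAP1L2 but by more than that of DPYSL3. In shControl_PA the levels were 2.67 ± 0.369 CPM per kilobase for DPYSL3 and 2.48 ± 0.0907 for LCP1, with AFAP1L2 at 0.609 ± 0.129. There DPYSL3 and LCP1 differed by less than the SD of DPYSL3 but by more than that of LCP1. In shACSL5_PA LCP1 led at 4.02 ± 0.173 CPM per kilobase, over DPYSL3 at 0.731 ± 0.0700 and AFAP1L2 at 0.242 ± 0.0466. L-plastin, the lowest of the 3 transcripts in untreated control cells, was the highest in knockdown cells with and without palmitate. In bulk RNA, fewer cells with a transcript and less of it per cell cannot be told apart.

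The relatives of the 3 genes were taken by family, whatever their values, and were tested. Of 8 relatives in the CRMP, AFAP and plastin families 6 passed the filter on low counts, and DPYSL4 and DPYSL5 had at most 3 and 1 counts in any library. In the interaction 3 of the 6 were called higher and 0 lower at an adjusted p under 0.05 (edgeR quasi-likelihood test), where 7.15% of all genes were called higher and 7.39% lower. With the knockdown 4 of the 6 were called lower and 0 higher, beside 32.6% lower and 29.7% higher of all genes. Palmitate in control cells lowered 4 and raised 0 (13.5% lower and 15.1% higher of all genes), and palmitate in knockdown cells raised 2 and lowered 0 (12.1% higher and 9.78% lower). The split of called genes moved with the scaling: the share higher was 52.8% for palmitate in control cells but 35.9% with library totals alone, 55.3% for palmitate in knockdown cells but 45.0% with upper quartile factors, and 49.2% for the interaction but 59.9% with library totals alone.

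Both relatives of LCP1 shared the sense of its interaction at a smaller size. Their knockdown changes, -1.68 for PLS1 and -0.85 for PLS3, were larger falls than the -0.65 of LCP1. PLS3, T-plastin, the plastin of most solid tissues and the most abundant of the family here, went from 426 ± 19.8 CPM in shControl to 236 ± 11.2 in shACSL5, and from 380 ± 3.00 in shControl_PA to 265 ± 13.0 in shACSL5_PA (SD, n = 3). Its interaction was 0.33 (SE 0.06, adjusted p = 0.000327), with palmitate at -0.17 (SE 0.04, adjusted p = 0.0026) in control and 0.17 (SE 0.04, adjusted p = 0.00454) in knockdown cells. PLS1, the plastin of intestinal microvilli, fell to 31.2% ± 1.72 of its control level with the knockdown and stood at 38.8% ± 2.40 in shACSL5_PA, with an interaction of 0.41 (SE 0.10, adjusted p = 0.00556). With palmitate PLS1 stood at -0.09 (SE 0.06, adjusted p = 0.271) in control cells, not called, and at 0.32 (SE 0.07, adjusted p = 0.00366) in knockdown cells. Unlike LCP1, PLS3 and PLS1 stayed below their control levels under palmitate, with a knockdown change of -0.52 (SE 0.04, adjusted p = 2.69e-10) for PLS3 and one of -1.27 (SE 0.07, adjusted p = 4.89e-13) for PLS1. On the scale per kilobase, LCP1 at 4.02 was a small part of the plastin transcripts in shACSL5_PA, beside PLS3 at 64.6 ± 3.16 and PLS1 at 4.33 ± 0.268. The difference between LCP1 and its relatives was not tested, since LCP1 was chosen on it.

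The relatives of AFAP1L2 differed from each other. AFAP1L1 fell with the knockdown by 1.07 (SE 0.08, adjusted p = 3.84e-11) and with palmitate in control cells by 0.53 (SE 0.07, adjusted p = 9.77e-06), and stood at -0.10 (SE 0.08, adjusted p = 0.456) with palmitate in knockdown cells. Its interaction was 0.44 (SE 0.11, adjusted p = 0.00954). Like AFAP1L2, this relative had its lowest mean in shACSL5_PA, at 15.2 ± 0.418 CPM against 33.9 ± 2.82 in shControl, although shACSL5 was near it at 16.2 ± 0.383. AFAP1, which crosslinks actin and recruits Src, was at 48.5 ± 1.56 CPM in shControl and fell by 0.20 (SE 0.05, adjusted p = 0.00608) with palmitate in control cells. It stood at -0.07 (SE 0.05, adjusted p = 0.239) with the knockdown and 0.16 (SE 0.07, adjusted p = 0.165) in the interaction.

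Among the CRMP genes, DPYSL2, or CRMP2, which promotes microtubule assembly in axons, was the most abundant, at 156 ± 2.13 CPM in shControl against 30.6 ± 1.67 for DPYSL3. It fell by 0.41 (SE 0.04, adjusted p = 2.44e-09) with the knockdown and by 0.17 (SE 0.04, adjusted p = 0.00175) with palmitate in control cells, and its interaction was 0.14 (SE 0.05, adjusted p = 0.0956, and 0.0409 with library totals alone). CRMP1 was low, at 1.15 to 1.99 CPM in the group means, and stood at -0.82 (SE 0.36, adjusted p = 0.0543) with the knockdown, a value that passed the threshold without shACSL5 replicate 2 (adjusted p = 0.0192) or shControl_PA replicate 2 (0.0473). It also passed with library totals alone (0.0482), no low-count filter (0.0428) and only the compared groups (0.0451). In shACSL5 DPYSL2 stood at 75.1% ± 2.05 of its control level (SD, n = 3), beside 8.37% for DPYSL3.

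**Figure D4:**
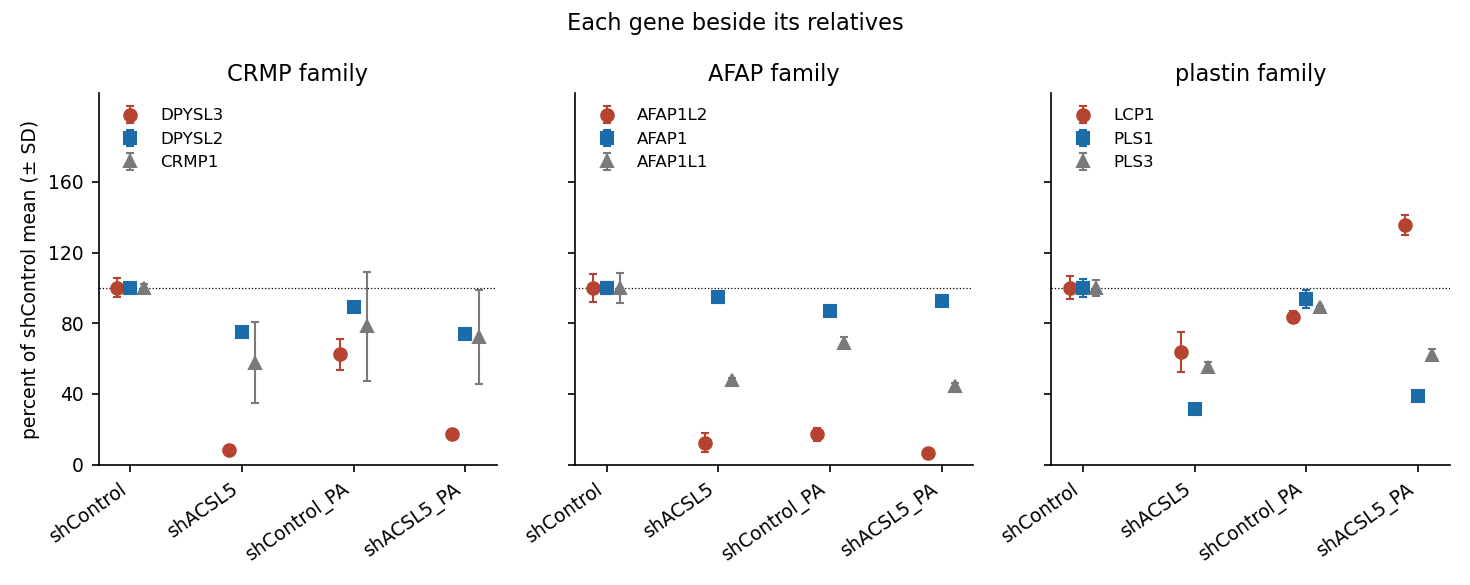
Level of each gene as a percent of its own shControl mean (y axis, SD as bars, dotted line at 100) in the 4 groups (x axis), with DPYSL3, AFAP1L2 and LCP1 as circles beside the relatives that passed the filter. In shACSL5_PA LCP1 lies at 136% while PLS1 and PLS3 lie at 38.8% and 62.1%, and DPYSL3 and AFAP1L2 are the lowest of their families in all groups other than shControl.

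The proteins that work with these 3 genes were read in 4 lists, given as counts beside the median over all genes, which lay between -0.02 and 0.01 in each comparison. The background for every list is the share of all genes called: 32.6% lower and 29.7% higher with the knockdown, and 7.39% lower and 7.15% higher in the interaction. For palmitate it is 13.5% lower and 15.1% higher in control cells, and 9.78% lower and 12.1% higher in knockdown cells. The lists also hold relatives tested above, such as PLS1 among actin bundling genes and AFAP1L1 among Src and AFAP partners. Their counts are therefore not separate from those of the relatives. Of 25 measured CRMP and semaphorin partners 15 fell and 2 rose with the knockdown (median -0.48), and 1 was lower and 2 higher in the interaction (median 0.14), counts near the background of 7.39% and 7.15%. SEMA3C, a secreted guidance cue, fell by 1.03 (SE 0.08, adjusted p = 1.77e-10) with the knockdown and SEMA3E, a ligand of plexin D1, rose by 1.43 (SE 0.10, adjusted p = 2.45e-11). The interaction was -0.85 (SE 0.14, adjusted p = 0.000245) for SEMA3E, opposite to DPYSL3, and 0.50 (SE 0.11, adjusted p = 0.00259) for MICAL1, an enzyme that oxidises actin. Palmitate lowered 9 and raised 2 of these partners in control cells (median -0.14) and lowered 5 and raised 4 in knockdown cells (median 0.03).

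Of 23 measured Src and AFAP partners 12 fell and 8 rose with the knockdown (median -0.13), and 3 were lower and 3 higher in the interaction (median 0.07). The background was 32.6% lower and 29.7% higher for the first and 7.39% and 7.15% for the second, so the 8 that rose were near it. NEDD9, a scaffold of focal adhesions, rose by 2.14 (SE 0.14, adjusted p = 8.77e-12) with the knockdown, where AFAP1L2 fell. ZYX, a focal adhesion protein, had an interaction of -0.31 (SE 0.06, adjusted p = 0.000638). Palmitate lowered 7 and raised 5 in control cells (median -0.01) and lowered 3 and raised 1 in knockdown cells (median 0.01).

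Of 26 measured actin bundling and crosslinking genes 12 fell and 5 rose with the knockdown (median -0.06), and in the interaction, the contrast on which LCP1 was chosen, 8 were higher and 2 lower (median 0.10). Of all genes 32.6% fell and 29.7% rose with the knockdown, and 7.15% were higher and 7.39% lower in the interaction. FSCN1, the fascin that bundles actin in filopodia, rose with the knockdown by 1.04 (SE 0.05, adjusted p = 3.24e-14) and had an interaction of -0.32 (SE 0.07, adjusted p = 0.00393), opposite to LCP1 in both. Palmitate lowered 10 and raised 3 of these genes in control cells (median -0.09) and lowered 2 and raised 7 in knockdown cells (median -0.01).

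Of 25 measured tubulins and microtubule-binding genes 14 fell and 5 rose with the knockdown (median -0.09), and in the interaction 9 were higher and 0 lower (median 0.15), beside 32.6% lower and 29.7% higher of all genes for the knockdown and 7.15% higher and 7.39% lower for the interaction. MAPT, the microtubule-binding protein tau, had values of -2.21 (SE 0.13, adjusted p = 8.94e-13) for the knockdown, -0.55 (SE 0.11, adjusted p = 0.000668) for palmitate in control cells and an interaction of 0.81 (SE 0.18, adjusted p = 0.00437). With palmitate in knockdown cells it stood at 0.26 (SE 0.15, adjusted p = 0.233), beside 1.02 for DPYSL3. TUBB2A, a beta-tubulin, rose by 0.41 (SE 0.05, adjusted p = 8.46e-06) with palmitate in knockdown cells. Palmitate lowered 4 and raised 3 of these genes in control cells (median 0.02) and lowered 0 and raised 9 in knockdown cells (median 0.15).

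The genes most like each of the 3 were found by the root mean square difference in log2 CPM over the 12 libraries, each gene centred on its own mean, among 10937 other genes with a mean of at least 5 CPM. Nearest to DPYSL3 were SYNC (0.400), JCAD (0.407), GNAL (0.412), TC2N (0.447) and TSPAN6 (0.449). GNAL went from 17.5 ± 1.12 CPM in shControl to 2.63 ± 0.187 in shACSL5 and 5.80 ± 1.07 in shACSL5_PA, and TSPAN6 from 36.8 ± 1.69 to 6.76 ± 0.233 and 12.7 ± 0.676 CPM. Exons of SYNC overlap RBBP4 over 48.9% and those of GNAL overlap other genes over 28.1%, so part of their reads may belong elsewhere.

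Nearest to AFAP1L2 were VGLL3 (0.631), CREB3L1 (0.658), CRIP2 (0.706), F13A1 (0.707) and S100A4 (0.712), all at larger distances than the genes nearest to DPYSL3. VGLL3, a cofactor of TEAD transcription factors, went from 12.8 ± 0.502 CPM in shControl to 3.46 ± 0.256 in shACSL5, 5.11 ± 0.0960 in shControl_PA and 2.47 ± 0.544 in shACSL5_PA. Nearest to LCP1 were IL11 (0.267), DPM3 (0.269), SAMD5 (0.272), SLC26A6 (0.272) and SLC66A1 (0.280). IL11, a cytokine of the IL6 family, was at 15.7 ± 1.12 CPM in shControl, 14.0 ± 0.0889 in shACSL5, 19.0 ± 0.689 in shControl_PA and 24.8 ± 2.16 in shACSL5_PA. It shared with LCP1 the highest level in shACSL5_PA and the lowest in shACSL5, but in control cells it was higher with palmitate, where LCP1 was lower. By the same measure the 3 genes differed from each other by 0.971 for DPYSL3 and AFAP1L2, 1.37 for DPYSL3 and LCP1 and 1.55 for AFAP1L2 and LCP1. The nearest genes are the smallest differences out of 10937, so any fixed pair would be likely to lie further apart, and no conclusion is drawn.

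Some genes that lie beside the 3 on their chromosomes were read as well, and were chosen after their values were seen. STK32A, a kinase gene on the plus strand whose end lies 2.96 kilobases beyond the end of DPYSL3, fell by 2.46 (SE 0.24, adjusted p = 5.2e-09) with the knockdown, at a mean of 3.41 CPM. Its interaction was 0.80 (SE 0.33, adjusted p = 0.117), beside 1.70 for DPYSL3. Near AFAP1L2 the knockdown changes differed in direction: CCDC186 fell by 1.43 (SE 0.13, adjusted p = 2.29e-09) and ABLIM1, an actin-binding protein gene 26.4 kilobases away, rose by 0.51 (SE 0.04, adjusted p = 3.8e-11). Their interactions were 0.34 (SE 0.18, adjusted p = 0.246) for CCDC186 and -0.08 (SE 0.05, adjusted p = 0.328) for ABLIM1. ZC3H13, 73.2 kilobases from LCP1, fell by 0.40 (SE 0.04, adjusted p = 6.38e-09) with the knockdown, and its interaction was 0.09 (SE 0.05, adjusted p = 0.289).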

How the data were processed

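RNA of 12 libraries (4 groups of 3) was measured by polyA sequencing. The authors deposited raw counts per gene, whole numbers with no normalization. Per the submitters' processing notes, the tools were HISAT2 2.1.0, fastp 0.22.0 and featureCounts, and the build was GRCh38. The annotation release and strand setting were not given in the sources used here. Overlapping genes on opposite strands may therefore share reads. Current symbols were matched to 51928 of 57730 genes and replaced 21216 of them. The depth was 16788694 to 21814751 counts a library.

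Genes were filtered with filterByExpr, which left 14706, scaled with TMM factors and fitted together over the 12 libraries by the quasi-likelihood method of edgeR 4.0.16 (R 4.3.3). P-values were adjusted over all genes by Benjamini-Hochberg, and the threshold was 0.05. Adjusted p-values are edgeR's except where another tool is given. The SE of a log2 change is the absolute coefficient over the square root of its F statistic and is approximate. The fits were tested on simulated data. The common dispersion was 0.00203. Replicates of a group differed beyond counting noise (chi-square per degree of freedom 2.23 to 4.28).

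The members and the lists were chosen with earlier results of these data known. Named genes were the 3 members, ACSL5, the family relatives, the largest rise and fall per list and comparison among called genes with a mean of at least 5 CPM, of which some are reported, and the 5 nearest patterns per member (log2 CPM with a prior count of 2). Some chromosomal neighbours and further values of relatives were added after the values were seen. Of the Src list 23 of 24 symbols were in the table. Gene positions are from GENCODE release 29 and promoter windows from RefSeq, where all 3 members matched. Alternatives were DESeq2 1.42.0, library totals alone, upper quartile factors, no low-count filter, a replicate block, only the compared groups, a prior count of 0.5 and leaving out each library. Some results are not reported here.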

Additional observations from a re-analysis of the deposited data

Results flagged for a closer look

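The palmitate response differed between control and knockdown cells for the genes below, and the value given is the log2 response of knockdown cells less that of control cells. For DPYSL3 (1.70), AFAP1L2 (1.68) and LCP1 (1.35) this is the value on which they were chosen, so it was not tested again. For the other named genes the difference itself passed the edgeR quasi-likelihood test. Higher in knockdown cells were MAPT (0.81), MICAL1 (0.50), AFAP1L1 (0.44), PLS1 (0.41), SYNPO (0.35, adjusted p = 0.00397), TUBB2A (0.35, adjusted p = 0.00249) and PLS3 (0.33). Lower in knockdown cells were SEMA3E (-0.85), FSCN1 (-0.32), ZYX (-0.31) and the actin crosslinker ACTN1 (-0.25, adjusted p = 7e-04). SYNPO, an actin-binding protein gene, fell by 0.35 (SE 0.05) with palmitate in control cells and stood at 0.00 (SE 0.06) in knockdown cells, while SEMA3E rose by 0.57 (SE 0.11) in control cells and stood at -0.29 (SE 0.09) in knockdown cells. Groups of 3 libraries are too small for the search for single outlying libraries that was used here.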

How the results depend on the processing

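The levels of DPYSL3, AFAP1L2 and LCP1 kept their direction in every comparison under the alternatives run. Leaving out 1 library gave -3.40 to -2.82 for AFAP1L2 with the knockdown, -1.07 to -0.48 with palmitate in knockdown cells and 1.48 to 2.07 in the interaction, and 81.3 to 86.8% of the shControl mean for LCP1 in shControl_PA. The CRMP and semaphorin list had 3 called genes in the interaction, 6 with library totals alone, 6 with no low-count filter and 3 to 5 with a library left out. With 1 library left out, values that were not called changed sign: -0.08 to 0.12 for ACSL5 in the interaction (below 0 without shACSL5 replicate 2 or shACSL5_PA replicate 3), -0.44 to 0.21 for CRMP1 with the knockdown under palmitate (above 0 without shControl_PA replicate 3 or shACSL5_PA replicate 2) and -0.03 to 0.27 for JAKMIP2 in the interaction (below 0 without shControl_PA replicate 3). The cause was not tested. NEDD9 with palmitate in control cells was not called with only the compared groups (adjusted p = 0.069, edgeR), without shControl replicate 3 (0.0811) or without shControl_PA replicate 2 (0.0891). With the replicate block 9197, 4302, 3363 and 2261 genes were called for the knockdown, palmitate in control cells, palmitate in knockdown cells and the interaction, against 9164, 4217, 3216 and 2139 without it. Deviations of same-numbered libraries correlated at -0.042 to 0.080 over 18 pairs, and those of differently numbered libraries at -0.076 to 0.078 over 36. No pairing by number was seen, which does not show that the samples were unpaired. Depth limits AFAP1L2, with 23 to 31 counts a library in shACSL5_PA, and CRMP1, with 17 to 41 over all libraries.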
